A study of Mus musculus with 30 samples.

Results

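The loci described here are those of 7 imprinted genes, H19, Igf2, Dlk1, Meg3, Rtl1, Rasgrf1 and Zdbf2, whose control regions are known to be methylated on the copy inherited from the father. The members are the CpGs from 20 kb before to 20 kb after each gene body on GRCm38 (40 kb either side for Rasgrf1) that had 10 or more reads, both strands summed, in all 30 libraries. There were 216 of them among 416876 such CpGs in the genome, with 9 in the H19 window, 60 in Igf2, 36 in Dlk1, 15 in Meg3, 15 in Rtl1 (7 shared with Meg3), 36 in Rasgrf1 and 52 in Zdbf2. Mature sperm from both cauda epididymides were profiled by RRBS, reduced representation bisulfite sequencing, an assay that enriches restriction fragments dense in CpGs and reads unmethylated cytosines as thymine. Male C57BL/6J mice (strain C57BL/6 in the sample labels), 7 weeks old when bought, were housed singly on a purified diet. Of these, 15 (the cadmium group) drank reverse-osmosis water with 0.9 ppm cadmium from cadmium chloride, at an average dose of 0.68 mg per kg of body weight, and 15 (the vehicle group) drank the water alone. All were sampled 9 weeks after treatment began, and each library is labelled as the sperm of 1 numbered animal of its group. The reads covering single cytosines added up to between 53591172 and 94090975 in a library.

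An imprinted gene is expressed from 1 parental copy only, according to methylation laid down in the germ line. Most germline marks are set in the egg, and only a few, at the H19-Igf2, Dlk1-Meg3, Rasgrf1 and Zdbf2 loci, are set in the male germ line, so that sperm carry them methylated while they carry the maternal marks unmethylated. In body cells both kinds of mark are present on 1 of the 2 parental copies. At H19-Igf2 the methylated control region keeps out the insulator protein CTCF and lets enhancers reach Igf2, a fetal growth factor, instead of H19, a noncoding RNA. At Dlk1-Meg3 the methylated intergenic region goes with expression of Dlk1, a transmembrane regulator of differentiation, and Rtl1, a retrotransposon-derived gene, from the paternal copy, and with silence of the noncoding RNA Meg3.

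RefSeq promoters on GRCm38.p6, each 250 bases before to 50 after a transcript start, were found for 5 of the 7 genes, 10 promoters in all. Those of Meg3, Igf2 and Zdbf2 are shown first because they hold measured CpGs, printed in capitals (at least 10 reads in 10 libraries or more of each group), and because those CpGs read low beside the methylated stretches described next. The Meg3 promoter is chr12:109540746-109541045, plus strand, and its 5 measured CpGs averaged 6.17% to 7.48%. The Igf2 promoter is chr7:142658755-142659054, minus strand, and its 8 measured CpGs averaged 0% to 2.55%. It is the one with the most measured CpGs among 4 Igf2 promoters, and another, chr7:142657447-142657746, minus strand, has 2 measured CpGs, at 2.23% and 25.5%. The inner Zdbf2 promoter is chr1:63273019-63273318, plus strand, and its 14 measured CpGs averaged 0% to 3.05%.
Meg3 promoter: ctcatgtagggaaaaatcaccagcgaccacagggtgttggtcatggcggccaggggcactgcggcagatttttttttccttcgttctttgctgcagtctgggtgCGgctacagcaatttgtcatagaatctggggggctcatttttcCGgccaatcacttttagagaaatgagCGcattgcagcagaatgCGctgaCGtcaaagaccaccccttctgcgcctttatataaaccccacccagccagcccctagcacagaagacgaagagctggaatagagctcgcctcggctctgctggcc
Igf2 promoter: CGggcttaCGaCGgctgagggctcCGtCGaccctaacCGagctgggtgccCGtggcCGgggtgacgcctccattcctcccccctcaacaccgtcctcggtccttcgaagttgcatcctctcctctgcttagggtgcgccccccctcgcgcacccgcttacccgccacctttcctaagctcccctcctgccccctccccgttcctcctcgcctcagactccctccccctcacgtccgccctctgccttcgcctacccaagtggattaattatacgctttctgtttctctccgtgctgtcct
Zdbf2 inner promoter: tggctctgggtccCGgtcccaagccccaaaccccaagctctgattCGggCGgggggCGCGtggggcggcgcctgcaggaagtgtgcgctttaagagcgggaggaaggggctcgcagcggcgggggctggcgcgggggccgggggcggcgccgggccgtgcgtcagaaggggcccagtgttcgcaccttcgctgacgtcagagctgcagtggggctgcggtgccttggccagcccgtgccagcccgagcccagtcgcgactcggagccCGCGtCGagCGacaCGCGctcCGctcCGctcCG

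The outer Zdbf2 promoter, chr1:63200108-63200407, plus strand, holds the hexamer TGCCGC, the core of the sequence bound by the imprint-protecting zinc finger protein ZFP57, at 2 places forward and 1 place as its reverse complement GCGGCA, in capitals here. Both strands were searched for TGCCGC, which was found in 3813 of 32851 RefSeq promoters of this length (11.6%) and in 3 of the 10 promoters of these genes, 1 each of Igf2, Meg3 and Zdbf2. A match is a run of letters and says nothing of binding.
Zdbf2 outer promoter: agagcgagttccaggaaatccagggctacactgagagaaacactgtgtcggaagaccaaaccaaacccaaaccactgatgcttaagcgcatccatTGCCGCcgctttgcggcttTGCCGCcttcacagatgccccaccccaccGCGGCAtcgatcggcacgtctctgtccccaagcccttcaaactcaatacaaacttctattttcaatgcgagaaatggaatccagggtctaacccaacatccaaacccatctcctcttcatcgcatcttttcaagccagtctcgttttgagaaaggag

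The windows also held 21 microRNA genes of RefSeq, most of them inside the Rtl1 body, where the microRNAs made from the strand opposite Rtl1 lie. The 3 shown are among those whose hairpin has a measured CpG within 100 bp. Their seeds (bases 2 to 8) are in capitals, and the seeds differ from each other. The CpG 8 bp past the miR-673 hairpin averaged 94.0%, that 67 bp past the miR-127 hairpin 97.9%, and that 88 bp before the miR-434 hairpin 99.1%. The other hairpins with such a CpG that close, miR-337 and miR-540, had it at 90.9% and 84.2%. Under the looser rule used for the promoters, other CpGs lie as close, such as 5 at the miR-433 hairpin that averaged 98.3%. Sperm thus read the DNA beside the 3 hairpins shown as methylated.
miR-673-5p: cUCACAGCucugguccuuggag
miR-127-3p: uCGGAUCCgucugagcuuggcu
miR-434-3p: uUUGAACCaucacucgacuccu

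The 216 CpGs fell into a low and a high class with little between. Averaged over the 30 libraries, 162 CpGs stood under 20%, 6 at 20 to 50%, 15 at 50 to 80% and 33 over 80%. A stretch was defined as 2 or more neighbouring CpGs with gaps of at most 500 bp, all averaging 50% or more or all under 50%. This gave 30 stretches, 15 methylated and 15 unmethylated, and 11 CpGs outside them. The cut at 50% passed through an empty range: the highest CpG under it, inside Zdbf2, averaged 31.8%, and the lowest above it, beside Igf2, averaged 56.2%.

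**Figure D1:**
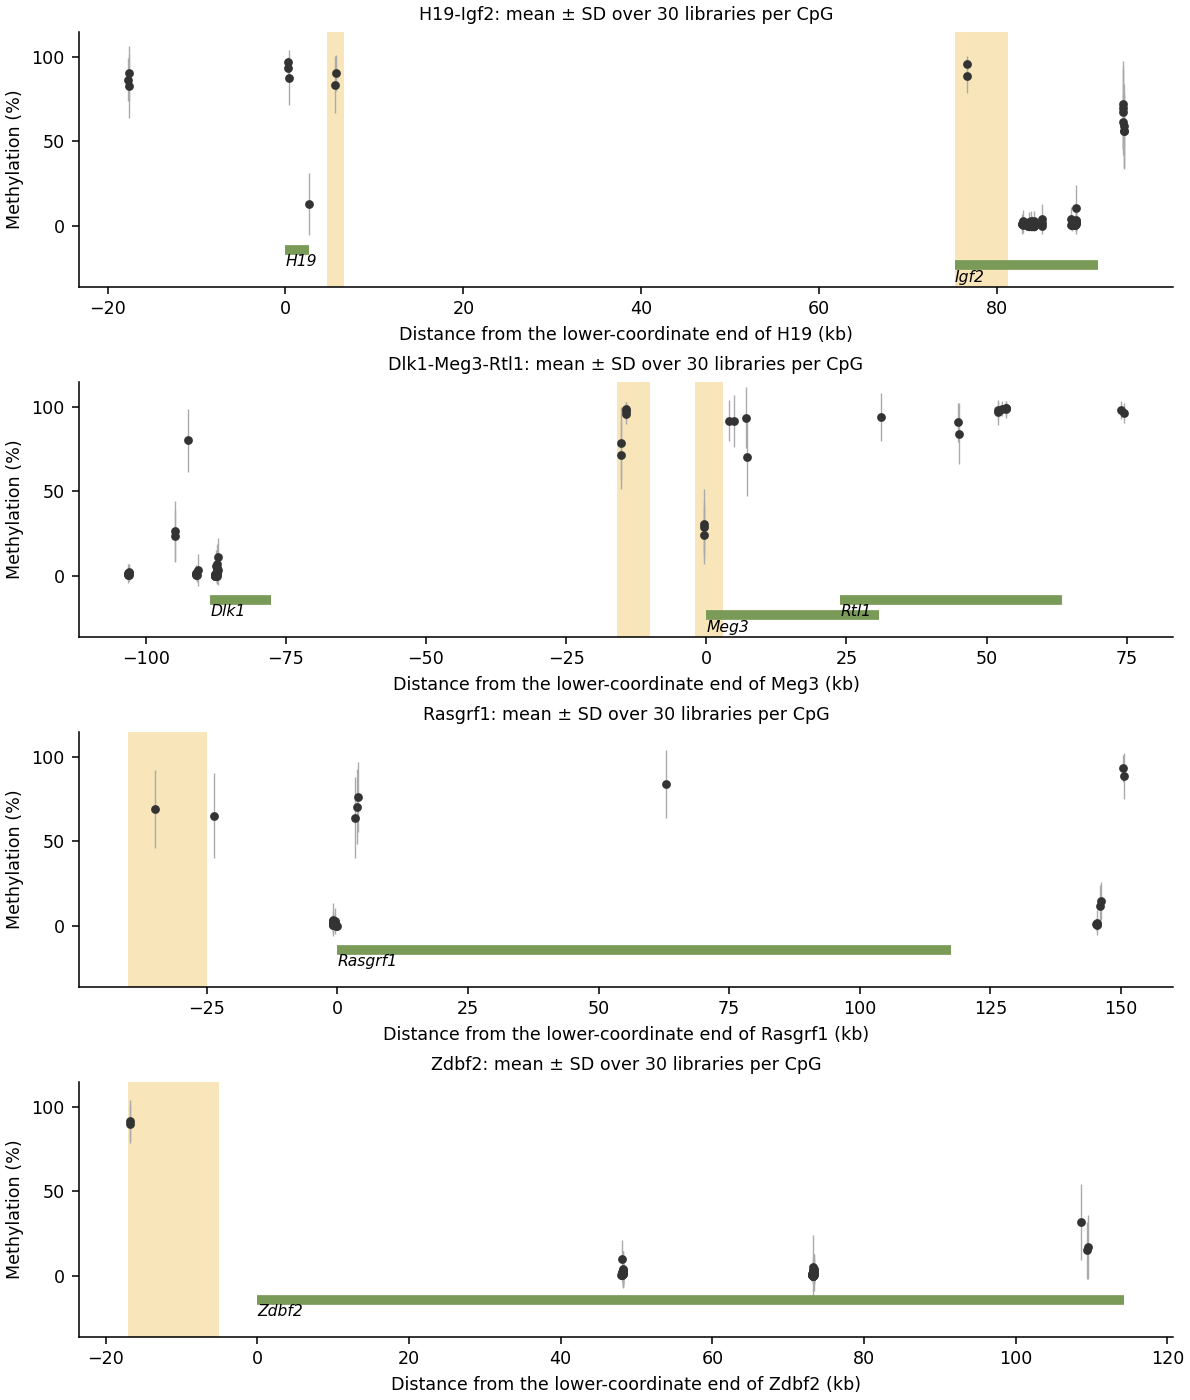
Mean methylation (%, points) with its SD over 30 libraries (lines) at each of the 216 CpGs, against the distance in kb from the lower-coordinate end of the gene named on the axis. Green bars are gene bodies and yellow bands the windows in which control regions were sought; CpG-rich clusters lie near 0% and the CpGs in the yellow bands lie above 69%, except those at the Meg3 start.

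The largest unmethylated stretches were CpG-rich parts inside or just before genes. Others held 2 or 3 CpGs or lay in no gene body, such as 2 CpGs 6337 bp before Dlk1, at 25.2% ± 15.5. Inside Igf2, 4 unmethylated stretches held 51 CpGs, and the largest of them, 31 CpGs at chr7:142659016-142659678, averaged 0.684% ± 0.550 (SD, n = 30). Inside Dlk1, 22 CpGs at chr12:109453344-109453968 averaged 2.15% ± 1.42. Just before Rasgrf1, which encodes an exchange factor for the GTPase Ras, 22 CpGs at chr9:89908680-89909346 averaged 1.31% ± 1.199. Inside Zdbf2, a gene of a zinc finger protein, 29 CpGs at chr1:63273444-63273786 averaged 1.31% ± 1.24. The highest library reached 1.78%, 5.28%, 4.91% and 4.43% at these 4 stretches in the same order, so every sperm library read them as nearly free of methylation. The annotation used gives gene bodies without exons or strand, so exon, intron and UTR could not be told apart.

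The H19 control region was represented by 2 CpGs at chr7:142581142-142581188, 2996 bp outside H19 on its Igf2 side and in no gene body, with a median of 140 summed reads per library. In cadmium mice it stood at 62.7% in the lowest library, 88.6% in the median and 100% in the highest, and in vehicle mice at 62.5%, 91.7% and 100%. The groups overlapped over nearly their whole range. Most libraries were above 85%, but both groups held libraries near 63%.

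Other stretches on the H19 side were methylated as well. Inside H19, 3 CpGs at chr7:142575795-142575969 averaged 92.6% ± 6.56. Inside the noncoding gene Nctc1, 17590 bp from H19, 3 CpGs at chr7:142557870-142557941 averaged 86.5% ± 11.3. The single CpG at chr7:142578204-142578205, 58 bp outside H19 on the side of the control region, was low, at 13.1% ± 18.4, with libraries from 0% to 65.9%. High and low CpGs of the H19 locus thus stood within a few kb of each other.

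At Igf2, 2 CpGs at chr7:142652084-142652118, in the part of the body nearest H19, averaged 92.2% ± 6.81. Beyond the far end, 7 CpGs at chr7:142669633-142669731, 2817 bp outside Igf2 and inside the antisense gene Igf2os, averaged 63.2% ± 18.1 and ranged from 9.57% to 94.4% over libraries. The spread of these 7 CpGs between libraries was wider than that of the Igf2 CpGs near H19.

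The Dlk1-Meg3 intergenic region was read through 2 stretches inside the predicted gene Gm34081 that behaved differently. The outer pair, at chr12:109525712-109525756 and 15241 bp before Meg3, ranged in cadmium mice from 38.5% over a median of 72.9% to 100%, and in vehicle mice from 23.0% over 77.4% to 100%. The inner 3 CpGs, at chr12:109526694-109526719 and 14278 bp before Meg3, ranged from 91.5% over 100% to 100% in cadmium mice and from 90.2% over 97.2% to 100% in vehicle mice. Less than 1 kb apart, the outer pair spread over most of the scale while the inner CpGs stayed above 90% in every library.

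At the Meg3 start, 3 CpGs at chr12:109540591-109540645, 352 bp before the gene, averaged 28.1% ± 14.2 and ran from 8.18% over 24.4% to 47.0% in cadmium and from 0% over 22.7% to 64.9% in vehicle mice. These CpGs lie upstream of the promoter printed above, whose own CpGs read lower. The Meg3 promoter is known to gain its paternal methylation after fertilization. Inside Meg3, 2 CpGs at chr12:109548101-109548287 averaged 81.9% ± 15.1. Inside the Rtl1 body, 3 stretches averaged 87.6% ± 13.1, 97.3% ± 3.99 and 99.0% ± 2.79, and 2 CpGs inside the noncoding gene Rian averaged 97.4% ± 3.98. Among the methylated stretches of the Dlk1-Meg3-Rtl1 locus measured in all 30 libraries, those that averaged over 95% had an SD under 5 points. The others had an SD over 13 points. These stretches hold 2 or 3 CpGs each, and the split was not kept in the wider set of CpGs described below.

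The region before Rasgrf1 had 1 CpG in all libraries, at chr9:89874650-89874651, 34858 bp before the gene and in no gene body. It stood between 32.2% and 100% in cadmium mice, with a median of 76.8%, and between 24.7% and 100% in vehicle mice, with a median of 70.0%. A second CpG, nearer the gene and outside the control-region window, at chr9:89885886-89885887, averaged 65.2% ± 24.95. Inside Rasgrf1, 2 CpGs at chr9:89913340-89913376 averaged 73.4% ± 20.4, from 25.6% to 100%. These CpGs varied more between libraries than those of the H19 control region, whose SD was 11.9.

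At Zdbf2 the window used for its control region lay inside Gpr1, a chemerin receptor gene and the neighbour of Zdbf2, because the RefSeq body of Zdbf2 begins at its outer start. There, 2 CpGs at chr1:63183548-63183630 stood from 70.1% over 91.6% to 100% in cadmium mice and from 71.1% over 93.8% to 100% in vehicle mice. The groups overlapped over nearly the whole range. Ordered by mean, the 7 control-region readouts ran from the inner intergenic CpGs (97.5%) over the Igf2 CpGs (92.2%), the Zdbf2 side (91.0%), H19 (87.0%), the outer intergenic pair (75.1%) and Rasgrf1 (69.4%) to the Meg3 start (28.1%). Neighbours in that order differed by less than the larger of their SDs, apart from the step from Rasgrf1 to the Meg3 start. The CpGs given below before the inner Zdbf2 start come from the wider set and are not in this order. They averaged lower than the Zdbf2 side.

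Cadmium and vehicle sperm were compared at these loci because the study asked whether cadmium in drinking water changes sperm methylation. The H19 control region averaged 86.4% ± 10.5 (SD, n = 15) in cadmium and 87.7% ± 13.4 in vehicle mice, a difference of -1.24 points with a 95% interval of -10.3 to 7.77. The Igf2 CpGs near H19 averaged 91.3% ± 7.20 and 93.2% ± 6.52 (interval -7.01 to 3.26), the outer intergenic pair 77.1% ± 16.6 and 73.0% ± 22.2 (interval -10.6 to 18.7), and the Rasgrf1 CpG 68.1% ± 21.5 and 70.7% ± 25.2 (interval -20.1 to 14.97). The inner intergenic CpGs averaged 98.3% ± 2.82 and 96.7% ± 3.32 (interval -0.616 to 4.00), the Meg3 start 28.0% ± 12.8 and 28.3% ± 15.8 (interval -11.1 to 10.5), and the Zdbf2 side 90.9% ± 8.06 and 91.1% ± 9.65 (interval -6.79 to 6.50). All 7 differences were smaller than the SD within either group. The intervals leave room for a rise of at most 4.00 points at the inner intergenic CpGs, but for a fall of 20.1 points at the Rasgrf1 CpG.

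**Figure D2:**
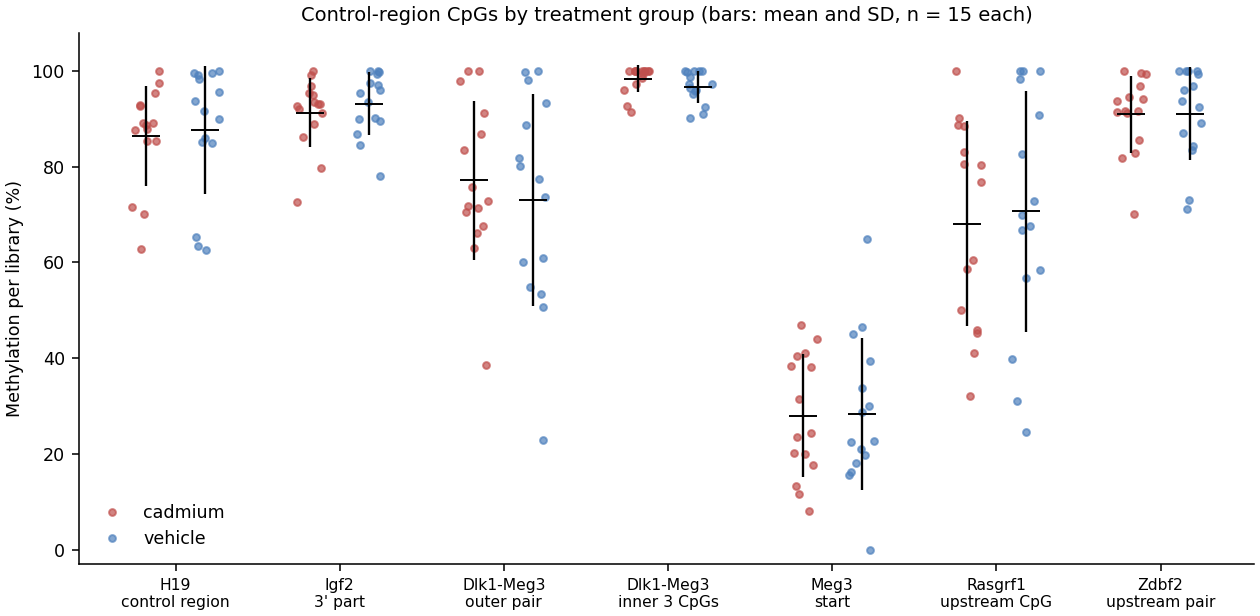
Methylation (%) of the 7 control-region readouts in each library (points; cadmium red, vehicle blue), with group mean (bar) and SD (line), n = 15 each. The groups overlap at every readout; the inner 3 Dlk1-Meg3 CpGs stay above 90% and the Rasgrf1 CpG runs from 24.7% to 100%.

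In the logistic model on methylated and unmethylated reads, with Benjamini-Hochberg adjustment over all 55613 stretches of the genome, 0 of the 30 stretches at these loci passed an adjusted p of 0.05. Across the genome 0% of stretches passed. At an unadjusted p under 0.05 the model took 0 of these 30 stretches and 4.69% of all stretches (2608). With limma on percent methylation, 0 stretches of the genome passed and 1705 had an unadjusted p under 0.05. The lowest p among the 30 was 0.0535, at 2 CpGs inside Zdbf2, chr1:63309802-63309824, where cadmium mice averaged 11.9% ± 17.3 and vehicle mice 20.5% ± 16.2 (adjusted p = 1 in the logistic model). The lowest values were 0% in both groups, the medians 0% and 16.7%, and the highest 52.2% and 49.3%, so the groups overlapped throughout.

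Of the 216 single CpGs, 0 passed the same model's adjusted threshold, against 0.00168% of CpGs in the genome (7 of 416876). At an unadjusted p under 0.05 it took 29 of the 216 and 10.3% of all CpGs, and limma found 0 past the adjusted threshold and 7441 with an unadjusted p under 0.05. The lowest adjusted p was 0.206, at the middle of the inner intergenic CpGs, chr12:109526713-109526714, where each of the 15 cadmium mice was at 100% and the vehicle mice averaged 95.2% ± 6.52. The vehicle libraries ran from 83.3% to 100% with a median of 100%, so more than 7 of them had the cadmium value. A CpG inside Meg3, chr12:109544978-109544979, averaged 87.2% ± 14.0 in cadmium and 96.5% ± 7.52 in vehicle mice (adjusted p = 0.452), and a CpG inside Ctsh on the far side of Rasgrf1, chr9:90059970-90059971, 89.4% ± 9.06 and 96.9% ± 5.10 (adjusted p = 0.366). At Zdbf2, chr1:63273615-63273616 read 0% in each cadmium mouse, while vehicle mice averaged 2.35% ± 5.39 (adjusted p = 0.319).

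**Figure D3:**
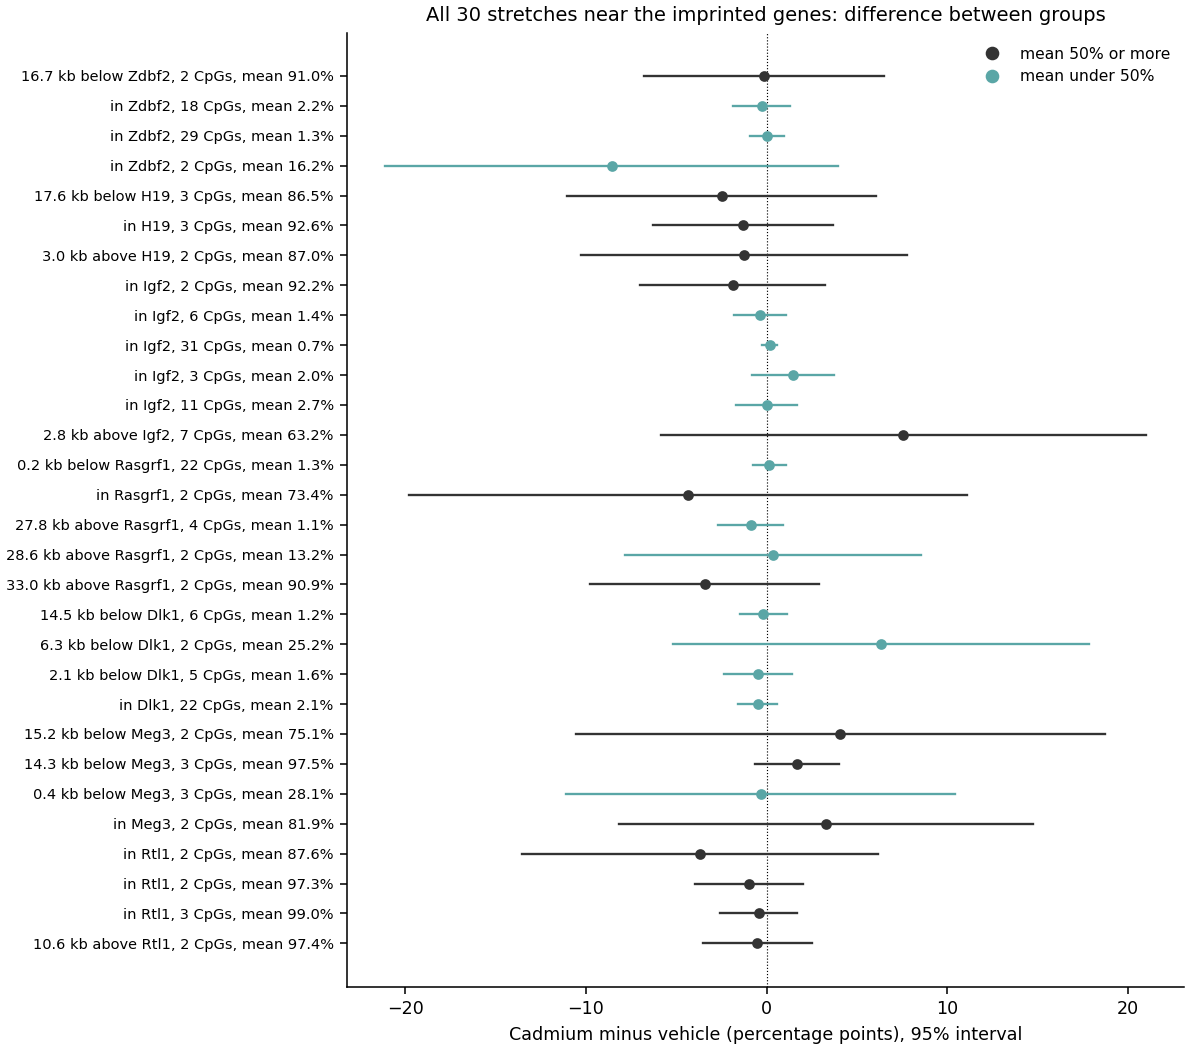
Cadmium minus vehicle mean (percentage points, dots) with 95% intervals (lines) at the 30 stretches near the 7 genes, named by gene, distance, CpG number and mean level. Black marks methylated and green unmethylated stretches; every interval crosses 0, and the intervals of unmethylated CpG-rich stretches are the narrowest.

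The stretches were then followed over the 30 libraries against the maternal imprint level, the mean over 14 gene-end windows (188 CpGs) from a list of 28 genes with maternal imprints, among them Peg3, Nnat, Snurf and Igf2r. A window was used where it had 3 or more CpGs averaging under 20% over the 30 libraries, so that Mest (28.5%), Plagl1 (21.9%) and Jade1 (25.5%) were left out for being higher. Gene ends need not hold the imprint itself, and the Grb10 window averaged 0.877%. The level is known to be near 0% in sperm and intermediate in body cells. It ranged from 6.20% over a median of 14.7% to 23.1% in cadmium and from 3.27% over 10.2% to 31.2% in vehicle libraries. Vehicle mice 13 and 4 stood highest, and the groups overlapped. Promoters of germline genes, which are known to be methylated in body cells and not in sperm, were measured for 9 of 14 list members, and their mean per library ran from 9.52% to 54.5% in cadmium and from 8.001% to 66.7% in vehicle mice. Each of the 9 moved with the maternal level over the 30 libraries, with r from 0.747 (Mael) to 0.876 (Tdrd1), given as a description with no test. Of 8 epididymal epithelium genes 1 was measured (Cldn4) and of 8 leukocyte genes 0. Cldn4 did not rise with the maternal level (r = -0.174, also with no test). The part of other cell types in the slopes below was not tested.

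Methylation at the H19 control region fell as the maternal imprint level rose. The slope, fitted by limma over all stretches with the treatment group as a term, was -1.31 ± 0.219 points (SE) per point of maternal level (Benjamini-Hochberg adjusted p = 3.88e-05). Across the 30 libraries Pearson's r was -0.749 (permutation p = 2e-05, adjusted p = 0.00024 over the 36 relations computed) and Spearman's rho -0.631 (permutation p = 0.00022). Within the cadmium mice r was -0.643 and within the vehicle mice -0.806. Without vehicle mice 4 and 13, the libraries farthest from the median, r was -0.640. The CpGs inside H19 fell with a slope of -0.513 ± 0.154 (limma adjusted p = 0.0116), and those inside Nctc1 with one of -1.37 ± 0.178 (limma adjusted p = 1.59e-06). Without vehicle mice 4 and 13 the slope inside H19 was -0.424 ± 0.207 (adjusted p = 0.170), so that call was lost. Within cadmium mice alone the Nctc1 slope passed (-1.44, adjusted p = 0.0474) and that of the H19 control region did not (-1.26, adjusted p = 0.0982).

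The outer intergenic pair and Rasgrf1 fell as well. The outer pair had a slope of -1.75 ± 0.422 (limma adjusted p = 0.00188), with r = -0.602 and rho = -0.699 (permutation p = 0.0004 and 1e-05, the second being the smallest that 100000 resamples can give). Without the 2 farthest libraries its r was -0.619. The Rasgrf1 CpG had a slope of -2.22 ± 0.485 (limma over CpGs, adjusted p = 0.00201) with r = -0.657, and the 2 CpGs inside Rasgrf1 one of -2.22 ± 0.379 (adjusted p = 4.75e-05). For the Rasgrf1 CpG r came to -0.306 within the cadmium and -0.858 within the vehicle group; the slopes of the groups differed with p = 0.191 (adjusted p = 0.668 over the 7 readouts). The Igf2 CpGs near H19 fell with a slope of -0.537 ± 0.159 (limma adjusted p = 0.0103), and without vehicle mice 4 and 13 it was -0.477 ± 0.216 (adjusted p = 0.135).

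Not all of the CpGs followed. The inner intergenic CpGs had a slope of 0.124 ± 0.0821 (limma adjusted p = 0.312), with r = 0.290. The Zdbf2 side, which lies inside Gpr1, had one of 0.383 ± 0.233 (adjusted p = 0.259). The Meg3 start, an unmethylated stretch with a mean of 28.1%, stood at 0.850 ± 0.361 (adjusted p = 0.0813). The 7 CpGs beyond Igf2, outside the control-region windows, rose, at 1.46 ± 0.407 (limma adjusted p = 0.00657). The call was lost without the 2 farthest libraries: without vehicle mice 4 and 13 the slope was 1.47 ± 0.566 (adjusted p = 0.0708), and within cadmium mice it was 0.931 ± 0.663 (adjusted p = 0.510). These last are inside Igf2os and averaged 63.2%, and 98.8% of methylated stretches in the genome had a lower slope.

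**Figure D4:**
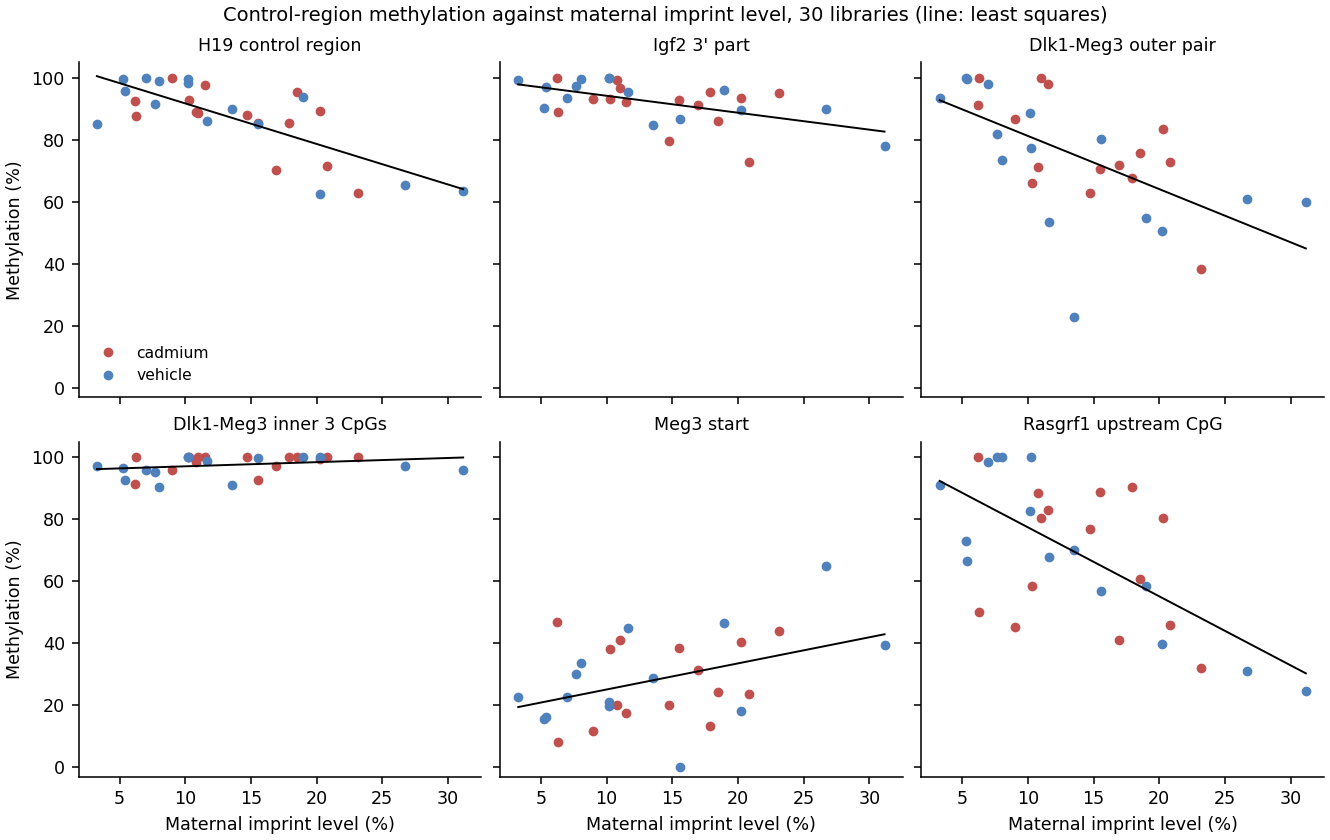
Methylation (%) of 6 control-region readouts against the maternal imprint level (%) in 30 libraries (cadmium red, vehicle blue), with least-squares lines. H19, the outer Dlk1-Meg3 pair and the Rasgrf1 CpG stand at 63.4%, 60.0% and 24.7% in the library with the highest maternal level, while the inner Dlk1-Meg3 CpGs stay above 90%.

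The slopes of 4 pairs of stretches, each pair from 1 locus and chosen after the slopes were seen, are set beside each other as a description with no test. The slope of the outer minus the inner intergenic CpGs on the maternal level was -1.88 ± 0.421 points per point (SE). For the H19 control region minus the CpGs inside H19 it was -0.794 ± 0.221, and for the CpGs beyond Igf2 minus those near H19 it was 1.999 ± 0.405. For the CpGs inside Rasgrf1 minus those inside Ctsh, which lie far from each other, it was -1.91 ± 0.478.

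Counted over the 15 methylated stretches at these loci, 7 fell with the maternal imprint level, 1 rose and 7 did not pass the test. Of all 31410 methylated stretches tested in the genome 25.9% fell and 3.73% rose. The median slope was -0.362 at these loci and -0.139 over all. A slope such as that of the H19 control region was thus not rare: 13.4% of methylated stretches had a more negative slope. Among methylated stretches that averaged 80 to 95%, 28.5% fell. Of the 15 unmethylated stretches here 3 rose, those of 22 CpGs inside Dlk1 (0.111 ± 0.0351 points per point), 11 CpGs inside Igf2 (0.163 ± 0.0552) and 18 CpGs inside Zdbf2 (0.182 ± 0.0489), and 0 fell. In the genome 24.9% of unmethylated stretches rose and 2.19% fell.

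**Figure D5:**
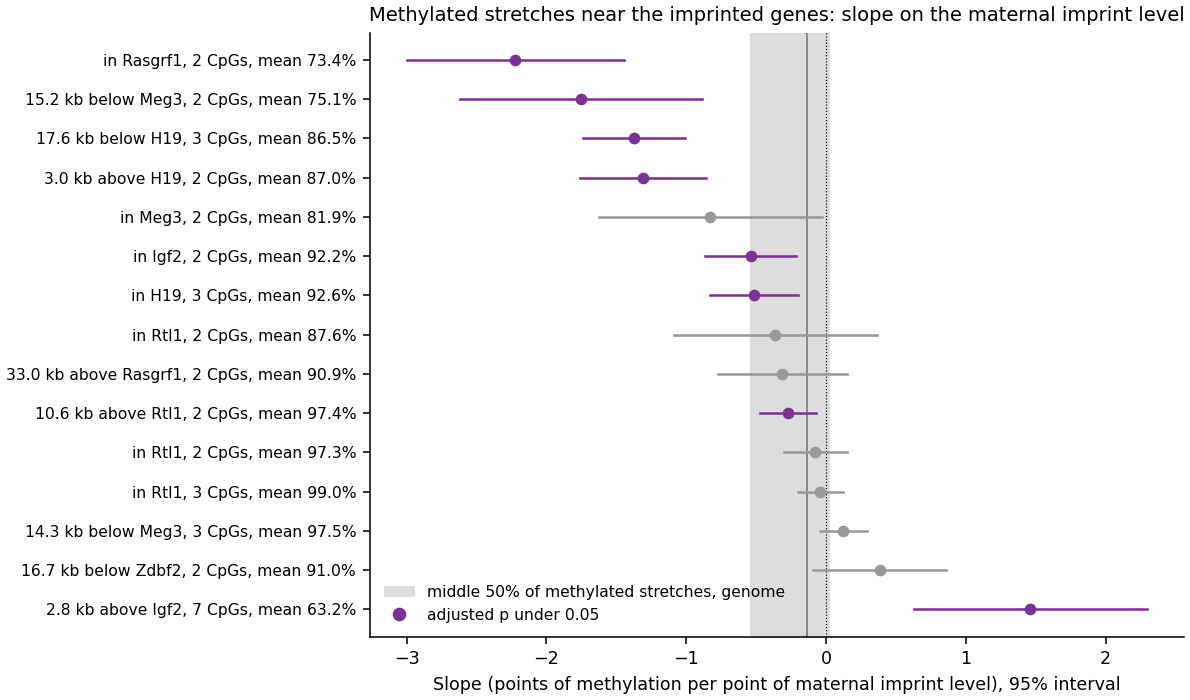
Slope of methylation on the maternal imprint level (points per point, dots) with 95% intervals (lines) for the 15 methylated stretches, purple where the limma adjusted p is under 0.05. The grey band is the middle 50% of the 31410 methylated stretches of the genome and the grey line their median of -0.139; 7 purple marks lie below 0 and 1, the CpGs beyond Igf2, above it.

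The share of coverage on the mitochondrial genome (chrM), from 0.0127% to 0.119% over libraries, moved with the maternal imprint level (r = 0.871, permutation p = 1e-05, the smallest that 100000 resamples can give; rho = 0.863). For each 0.01 point of this share, the H19 control region had a slope of -2.74 ± 0.554 points (limma adjusted p = 0.000313), the outer intergenic pair one of -4.26 ± 0.933 (adjusted p = 0.000734), the Igf2 CpGs near H19 one of -1.1195 ± 0.377 (adjusted p = 0.0249) and the Rasgrf1 CpG one of -5.10 ± 1.116 (adjusted p = 0.00201). Of the 15 methylated stretches 5 fell and 1 rose, where 26% and 3.72% of all methylated stretches did, and of the 15 unmethylated stretches 3 rose and 0 fell, where 24.3% and 2.52% of all unmethylated stretches did. With both measures in 1 fit, 0 of the 15 passed on either, where 0.00637% of all methylated stretches fell with the maternal level and 0.0287% with the chrM share. Several slopes kept about their size while their errors grew. On the maternal level, with the chrM share as a term, the H19 control region had a slope of -1.1203 ± 0.458, the CpGs inside H19 -0.628 ± 0.323, the Igf2 CpGs near H19 -0.471 ± 0.333 and the CpGs inside Rasgrf1 -2.19 ± 0.796. That of the outer intergenic pair came to -0.563 ± 0.846, from -1.75. On the chrM share, with the maternal level as a term, the slope was -0.492 for H19 and -3.13 for the outer pair per 0.01 point. Neither measure was called beside the other at these loci.

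The readouts also moved together, though not all of them. The H19 control region and the Rasgrf1 CpG, on different chromosomes, had r = 0.703 over the 30 libraries (permutation p = 2e-05, adjusted p = 0.00024; rho = 0.515; r = 0.603 without vehicle mice 4 and 13). H19 and the outer intergenic pair had r = 0.519 (permutation p = 0.00366, adjusted p = 0.0120; r = 0.558 without cadmium mouse 13 and vehicle mouse 10), and Igf2 and Rasgrf1 had r = 0.572 (permutation p = 0.00057, adjusted p = 0.00228; r = 0.504 without vehicle mice 4 and 13). The inner and outer intergenic CpGs had r = 0.0107 (permutation p = 0.955), and the Zdbf2 side had no adjusted p under 0.05 with any other readout.

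The other genes of the member domains were low where measured. Of 18 such genes fixed in a list, 9 had 3 or more CpGs at a gene end, 8 of them under 20% and Nctc1 over 80%. At the Dlk1-Meg3 domain, Begain, Wdr25 and Dio3 averaged 0.334%, 0.396% and 0.936% in cadmium and 0.680%, 0.321% and 0.457% in vehicle mice. Of the 9 genes 0 passed the logistic model's adjusted threshold, where 0% of 14378 gene ends in the genome did and 842 had an unadjusted p under 0.05.

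A looser rule set after seeing the data, at least 10 reads in 10 libraries or more of each group, gave 631 CpGs at these loci of 1126751. At the outer Zdbf2 start, just past the promoter printed above, 9 CpGs averaged 43.9% to 51.4% over 29 libraries, with single libraries from 0% to 100%. The slopes of its 3 stretches on the maternal level were 3.12 ± 0.601, 3.37 ± 0.624 and 3.37 ± 0.839 points per point (SE). They were the largest positive slopes among the 82 stretches of this set at these loci. This start was not among the planned control-region windows, and it also lies in the body of Gpr1, a gene of the maternal list. Before the inner Zdbf2 start, 5 CpGs at chr1:63261205-63261428 averaged 24.2%, 2 CpGs at chr1:63263509-63263639 62.6% and 8 CpGs at chr1:63266305-63266511 17.03%. Their slopes in the same order were 0.424 ± 0.631, -1.73 ± 0.716 and 0.958 ± 0.571, so the methylated pair had a negative slope. Apart from that pair, the CpGs before the inner start read low, although sperm are described above as carrying the Zdbf2 mark methylated. Whether these CpGs or those inside Gpr1 stand for that mark was not tested. Before Rasgrf1, 3 CpGs at chr9:89874612-89874692 averaged 70.0% ± 24.5 with a slope of -2.55 ± 0.492, and 4 CpGs at chr9:89878077-89878315 averaged 78.1% ± 14.8 with a slope of -0.815 ± 0.388. Of the 82 stretches here 0 passed the logistic model's adjusted threshold between cadmium and vehicle, where 0.00212% of all 141489 stretches of this set did, and 4 had an unadjusted p under 0.05, where 5.45% did. The 3 CpGs before Rasgrf1 averaged 70.8% in cadmium and 69.2% in vehicle mice, a difference of 1.66 points (interval -16.97 to 20.3), opposite in sign to that of the single Rasgrf1 CpG among them, -2.54 points. A further pair of intergenic CpGs, chr12:109528845-109528870, averaged 92.7% in cadmium and 100% in vehicle mice (logistic model adjusted p = 0.458). Around the low CpG just outside H19, 7 CpGs at chr7:142578103-142578243 averaged 15.9% ± 17.3. Their slope on the maternal level was 1.62 ± 0.379, opposite in sign to that of the H19 control region. Inside Rtl1, 3 CpGs at chr12:109576523-109576754 averaged 95.3% ± 10.3, and 9 CpGs at chr12:109585901-109586010 averaged 94.1% ± 5.61. Other Rtl1 stretches kept a small SD, such as 10 CpGs at chr12:109590341-109591005, at 97.8% ± 4.15. Inside Rian, 8 CpGs at chr12:109614563-109615438 averaged 83.1% ± 12.98, with a slope of -1.49 ± 0.213. They span the Rian pair that averaged 97.4%.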

How the data were processed

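The files deposited by the authors list CpG cytosines by strand, each with a read count and a methylated fraction. The submitters' processing notes list the builds GRCm38 and mm10 and, with no role given, methylKit 1.12.0, Bismark 0.22.3, Trim Galore 0.5.0 and bcl2fastq. Methylated reads were the rounded product of fraction and count. In no library did more than 1 product lie over 0.1 from a whole number. Strands were summed. Libraries were grouped by the labels' treatment. The genes and lists were chosen with earlier results of these data known, and all named control regions, stretches and CpGs follow a rule stated by gene window: H19 2 to 4 kb beyond its end facing Igf2, Igf2 6 kb inside, Meg3 10 to 16 kb before and 2 kb outside to 3 kb inside, Rasgrf1 25 to 40 kb and Zdbf2 5 to 17 kb before, plus per locus the stretches with the steepest slopes and the CpGs with the smallest p. The 4 slope pairs, the CpG at the H19 start and the wider set were added after seeing the data. The second CpG before Rasgrf1 also falls outside this rule.

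Cadmium was tested with a quasi-binomial logistic model (dispersion at least 1, F test), slopes with limma 3.58.1 in R 4.3.3 on percent methylation, with Benjamini-Hochberg adjustment genome-wide at 0.05, and relations with two-sided permutation tests (100000 resamples). A read can cover neighbouring CpGs, and PCR duplicates cannot be told from separate molecules, so the spread between mice, not read counts, carries every error given. Methods were tested on simulated data. No 2 libraries looked like repeat sequencing: over 435 pairs the lowest mean chi-square of a CpG was 9.98. Alternatives were 5 or 20 reads, other gaps and levels, no dispersion term, limma with and without a replicate block, separate strands, other covariates, single groups and fewer libraries.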

Additional observations from a re-analysis of the deposited data

How the results depend on the processing

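The 7 control-region differences between cadmium and vehicle kept their direction and their side of the threshold in 60 of 63 alternatives. In the wider set the Zdbf2 side stood at 0.0463 points, from -0.144, and with no dispersion term the Igf2 CpGs and the inner intergenic CpGs passed (logistic model adjusted p = 0.0114 and 3.99e-08). Stretches past the threshold in the genome were 0 of 55613, but 30964 of 55613 with no dispersion term, where 14 of the 30 at these loci passed. In the wider set of CpGs 3 of 141489 stretches passed the threshold. Single CpGs past it were 7, but 2 at 20 reads and 0 with limma. The replicate numbers gave no clear pairing of the mice. Same-numbered pairs correlated from -0.375 to 0.792, 7 of 15 above 0.1, and 2 of 15 cadmium mice were closest to their own number. The mean correlation was 0.140 for same-numbered and -0.00795 for other pairs, so these values do not settle whether numbers pair the mice. With the replicate block in limma, 0 stretches and 0 CpGs passed.

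Methylated stretches falling with the maternal level were 8125, but 4073 at 20 reads, where fewer were tested, 937 within cadmium mice, 5390 without vehicle mice 4 and 13, and 2 with the chrM share as a term. Those falling with the chrM share were 8165, but 1921 within cadmium mice and 9 with the maternal level as a term. At these loci 7 of 15 stretches fell (25.9% in the genome), 1 within cadmium mice (2.98%), 5 within vehicle mice (22.1%), 4 without vehicle mice 4 and 13 (17.2%) and 0 with the chrM share as a term (0.00637%), where H19 had a slope of -1.1203 and the CpGs inside Rasgrf1 one of -2.19. H19 had a slope of -1.26 within cadmium mice (limma adjusted p = 0.0982), Igf2 one of -0.477 without vehicle mice 4 and 13 (adjusted p = 0.135), and the outer intergenic pair -2.04 and -1.63 within cadmium and vehicle mice (adjusted p = 0.0854 and 0.0576).

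Slopes that did not pass the test and changed sign were that of the Zdbf2 side on the maternal level (-0.0129 at 5 reads and -0.237 within cadmium mice) and on the chrM share (-0.0564 within cadmium mice), that of the inner intergenic CpGs on the maternal level with the chrM share as a term (-0.0564), and that of the Meg3 start on the chrM share with the maternal level as a term (-0.212). The causes were not tested. Control regions rest on 1 to 3 CpGs each, with medians of 77 to 333 reads per library, which limits how far each stands for its region.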
